A study of Mus musculus with 3 samples.

Results

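Htr3a and Htr3b encode the A and B subunits of the ionotropic serotonin receptor, known as the 5-HT3 receptor. Both genes were found by symbol, 2 members among the 32531 gene symbols listed for each library, and both had counts in every library. They were measured in adult mice of the cross Htr3a-Cre (NO176)::Rosa26-LSL-EGFP/Rpl10a, in which Cre made under the Htr3a driver removes a stop cassette and switches on EGFP fused to the ribosomal protein Rpl10a. Ribosomes carrying EGFP were pulled from homogenised whole cerebral cortex with antibodies, and the RNA bound to them was sequenced, an assay called translating ribosome affinity purification (TRAP). The 3 libraries, replicates 1, 2 and 3, form 1 immunopurified group. Unpurified cortex was not analysed here, so levels are compared only between genes of the same libraries. The driver marks any cell that has made Cre at any time up to the dissection. Nothing in the labels ties the replicates to separate mice, so the spread behind each p-value is that of these samples and may be technical.

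The 5-HT3 receptor belongs to the pentameric Cys-loop family of ligand-gated channels, with the nicotinic acetylcholine, GABA-A and glycine receptors, and it is the serotonin receptor that is itself an ion channel. The other serotonin receptors act through G proteins. The A subunit forms working channels on its own, whereas the B subunit reaches the cell surface only together with A and changes the conductance and kinetics of the channel. In the cerebral cortex the receptor is known from GABAergic interneurons of the caudal ganglionic eminence, such as the Vip and neurogliaform cells, which are often named after Htr3a.

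The genes are neighbours on the minus strand of chromosome 9. In the mouse build GRCm38, which mm10 denotes, Htr3a spans chr9:48899213-48911099 and Htr3b spans chr9:48935008-48964990, with 23908 bases between them. Each has 9 exons in the GENCODE M21 annotation, which add up to 2083 bases for Htr3a and 2411 bases for Htr3b. Exons of other annotated genes overlapped none of these bases, although the antisense gene Gm32335 crosses part of the Htr3a span. The coding sequences were 61.44% identical over 1294 aligned bases, and the longest run that the transcripts shared was 14 bases. The family is named for a loop closed by a pair of cysteines with 13 residues between them. The 45 bases that encode this loop are shown because they give the family its name. Capitals mark the 14 bases at which they differ, and the remaining 31 are the same. The stretches lie at chr9:48904608-48904652 and chr9:48946446-48946490 on the minus strand and are given 5′ to 3′ from the GENCODE M21 transcripts.
Htr3a: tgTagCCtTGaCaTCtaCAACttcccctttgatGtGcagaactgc
Htr3b: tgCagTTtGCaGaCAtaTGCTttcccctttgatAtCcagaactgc

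Htr3a has 2 annotated coding transcripts, and the deposited counts add them together. Their coding sequences differ by 18 bases, or 6 residues, present in the longer form only, at chr9:48899991-48900008 in the stretch that encodes the large loop inside the cell. The sequences below give these bases in capitals with 12 bases of coding sequence on either side, because counts per gene cannot say which form was present.
Htr3a longer form: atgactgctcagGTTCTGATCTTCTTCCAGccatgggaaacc
Htr3a shorter form: atgactgctcagccatgggaaacc
Htr3b has 1 annotated transcript, which encodes 437 residues against 489 and 483 for the Htr3a forms.

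Gene counts came to 14383545, 13951332 and 14461053 in replicates 1, 2 and 3. Summed levels of marker lists, in TPM, the length-corrected share of all transcripts, were 3960 to 4313 for 9 GABAergic markers, 3434 to 3804 for 12 excitatory, 263 to 294 for 8 astrocyte, 255 to 418 for 9 oligodendrocyte, 20.9 to 35.3 for 8 microglial and 6.13 to 7.68 for 8 endothelial markers. RNA of cells other than interneurons was thus present, and 0 of these genes had no count in all 3 libraries. Single genes made up much of some sums. Gad2 gave 2121 to 2322 TPM of the GABAergic sum and Camk2a 2316 to 2884 TPM of the excitatory sum. Aldoc gave 186 to 220 TPM of the astrocyte sum. For interneurons, 20 markers of the Htr3a class summed to 12782 to 14583 TPM, of which Cck gave 4175 to 6211 TPM and Npy 2725 to 3544 TPM. The 10 of the other class, from the medial ganglionic eminence, summed to 8482 to 9608 TPM, of which Sst gave 7646 to 8729 TPM. In such pooled RNA, fewer cells of a type and less RNA per cell cannot be told apart.

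Htr3a was among the most abundant messages of the captured ribosomes. These ribosomes were captured through the Htr3a driver, so the level of Htr3a is not independent of how the RNA was selected. The same holds for its rank, its share of receptor genes and its ratio to Htr3b. The part of the selection in these values was not tested. Its counts were 3759, 3410 and 3426, or 261, 244 and 237 CPM, which is scaled to the gene counts of each library. Per length, its level was 655, 582 and 569 TPM in replicates 1, 2 and 3 (602 ± 46.1, SD, n = 3). Replicate 1 was the highest and the other libraries lay close together. Among the 16651 genes with a length and a count, Htr3a ranked 169, 197 and 197 from the top, so that about 1.01% to 1.18% of genes stood at or above it.

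Htr3b was detected in every library at a level near the middle of the order. It had 118, 67 and 115 counts, or 8.20, 4.80 and 7.95 CPM, far over the 3 counts (0.207 to 0.215 CPM) that a count of 0 would still allow. The Wilson 95% intervals were 6.85 to 9.82, 3.78 to 6.10 and 6.63 to 9.54 CPM, which cover counting error only. The corresponding levels were 17.8, 9.87 and 16.5 TPM (14.7 ± 4.24, SD, n = 3). Replicate 2 was the lowest, and its interval in CPM did not overlap those of the other libraries. The ranks of Htr3b were 6744, 8711 and 7345, with 40.5%, 52.3% and 44.1% of genes at or above it.

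**Figure D1:**
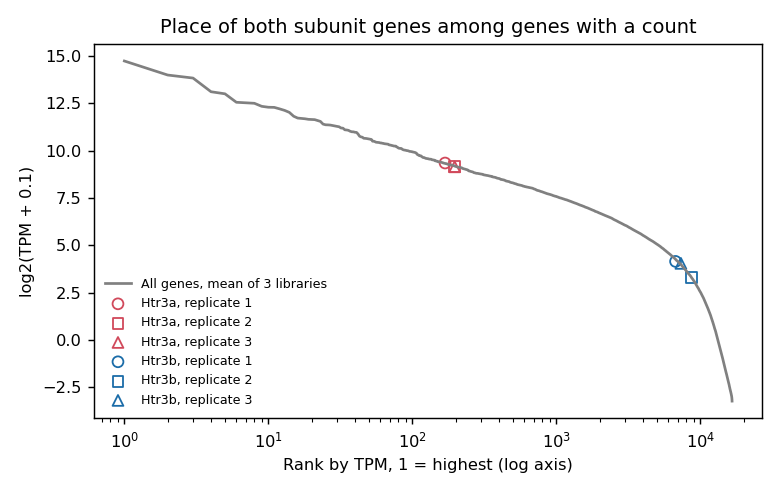
Level against rank for all 16651 genes with a length and a count, as log2(TPM + 0.1) on the vertical axis and rank on a log axis, with the grey line for the mean of the libraries and 1 symbol per library for Htr3a (red) and Htr3b (blue). Htr3a lies on the upper slope at ranks 169 to 197, and Htr3b at ranks 6744 to 8711.

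The A subunit message exceeded that of the B subunit in 3 of 3 libraries, by about 42-fold. Differences were taken within each library on the log2(TPM + 0.1) scale, which understates differences of genes near 0, and every gene was tested against the subunit gene with limma, with Benjamini-Hochberg adjustment over all 16650 genes tested. Htr3a minus Htr3b was 5.20, 5.87 and 5.10 in replicates 1, 2 and 3, a mean log2 difference of 5.39 (SD 0.42, n = 3) or 41.9-fold. The limma adjusted p was 9.98e-23 with Htr3b as the reference gene, where the spread was fully pooled over genes, and 9.69e-05 with Htr3a as the reference gene. Without moderation of the spread it was 0.0395 (limma). The background is high in such comparisons: 31.1% of all genes were called higher than Htr3b and 42.2% lower, or 5183 and 7019 genes, and on the CPM scale the split was 7438 higher and 6277 lower. An exact test that only flips signs over 3 libraries could not give a p below 0.25.

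Per exon length, there were 36.9 Htr3a messages for each of Htr3b in replicate 1, with a 95% interval of 30.7 to 44.3. Replicate 2 had 58.9 (46.3 to 75.0) and replicate 3 had 34.5 (28.6 to 41.5). The intervals come from Wilson limits of the B share of counts. Replicates 1 and 3 were alike in this ratio, and replicate 2 stood above them with an interval that touched neither. In raw counts, Htr3b made up 3.04%, 1.93% and 3.25% of the counts of both subunits (2.74 ± 0.711, SD, n = 3), with Wilson 95% intervals of 2.55 to 3.63, 1.52 to 2.44 and 2.71 to 3.88. Per exon length the B share was 2.64%, 1.67% and 2.82% (2.38 ± 0.619, SD, n = 3).

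The B share differed between libraries by more than counting error (chi-square test of the counts of both genes in 3 libraries, p = 0.00128). In pairs, replicate 2 differed from replicate 1 (Fisher's exact test, two-sided, adjusted p = 0.00331 over 3 pairs) and from replicate 3 (exact, adjusted p = 0.00157), while replicates 1 and 3 gave an adjusted p of 0.641 in the same exact test. These tests compare libraries, not conditions. A length correction leaves the comparison between libraries as it is, since the same lengths apply to each.

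**Figure D2:**
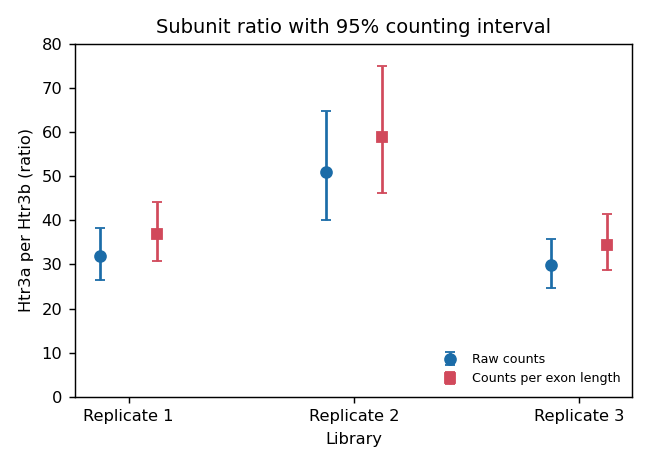
Ratio of Htr3a to Htr3b in each library, from raw counts (blue circles) and from counts per exon length (red squares), with bars for the 95% interval from counting. Replicate 2 lies at 50.9 and 58.9, above replicates 1 and 3, which lie between 29.8 and 36.9.

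Each subunit gene varied between libraries beyond counting error, as most genes did. With library sizes scaled by edgeR's TMM method, Htr3a stood at 274, 239 and 231 CPM, the highest being 1.19 times the lowest (chi-square test over the 12949 genes that averaged 1 CPM or more, adjusted p = 8.07e-13). For Htr3b the scaled values were 8.60, 4.70 and 7.76 CPM, a 1.83-fold range (chi-square, adjusted p = 0.000406). Of all genes tested, 74.3% passed the same threshold. Without replicate 1 the Htr3a range shrank to 1.03 (chi-square, adjusted p = 0.261), and without replicate 2 that of Htr3b to 1.12 (chi-square, adjusted p = 0.476). The biological coefficient of variation fitted by edgeR was 13.9% for Htr3a, lower than in all but 4.15% of genes, and 29.2% for Htr3b, against a median of 22.4%. These values are drawn towards the trend at each gene's abundance, 14.9% and 29.2%, by the fit itself.

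Replicate 1, highest in Htr3a, was also highest in the summed level of every marker list, those of neurons and of other cells alike. For the Htr3a class the sums were 14583, 12782 and 12939 TPM in replicates 1, 2 and 3. Markers of the other interneuron class summed to 9608, 9230 and 8482 TPM and the GABAergic markers to 4313, 4198 and 3960 TPM. The excitatory markers (3804, 3434 and 3477 TPM) and the oligodendrocyte markers (418, 299 and 255 TPM) had the same library highest. Camk2a alone carried the excitatory order, at 2884, 2425 and 2316 TPM, and the other 11 excitatory markers ran the other way, at 920, 1009 and 1160 TPM. Without their most abundant gene, the GABAergic, oligodendrocyte and endothelial sums and that of the other interneuron class were still highest in replicate 1. Those of the Htr3a class, the astrocytes and the microglia, like the excitatory sum, were then highest in replicate 3. Replicate 2, lowest in Htr3b, was lowest in the summed microglial markers (35.3, 20.9 and 28.9 TPM). The part of other cells in these differences was not tested.

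Among the 14 serotonin receptor genes of the mouse, Htr3a was the highest in every library. It held 70.3%, 72.8% and 71.2% of their summed TPM (71.4 ± 1.30, SD, n = 3), whereas Htr3b held 1.91%, 1.24% and 2.06%. All 12 G-protein-coupled receptor genes were below Htr3a by the limma test, as were 98.1% of all genes. Closest was Htr5a, a receptor that couples to inhibitory G proteins, with 154, 107 and 102 TPM. Its log2 difference to Htr3a was -2.34 (SE 0.16; limma, adjusted p = 0.000322), and its levels did not overlap those of Htr3a. The G-protein-coupled receptors together came to 259, 207 and 214 TPM.

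Htr3b took place 5 in this order of mean TPM. Htr5a at 121 ± 28.7 TPM and Htr2a, the excitatory receptor coupled to phospholipase C, at 33.2 ± 2.80 TPM were above it (limma, adjusted p = 4.02e-08 and 0.0346). The log2 difference of Htr2a to Htr3b, 1.21, lost its call without replicate 1 (1.30) or replicate 3 (1.34) and without moderation (limma, adjusted p = 0.0617). Htr2c, a relative of Htr2a, stood at 32.6, 28.3 and 32.3 TPM, above Htr3b in 3 of 3 libraries, but the difference of 1.12 did not pass (SE 0.54; limma, adjusted p = 0.0519). It did so under 7 of 10 alternatives, whose differences ran from 0.92 to 3.05 over all 10.

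Neighbouring Htr7 and Htr1a did not differ from Htr3b beyond the spread. Htr7, which couples to stimulatory G proteins, stood at 9.82, 12.5 and 13.6 TPM, a log2 difference of -0.26 (SE 0.54; limma, adjusted p = 0.671). Htr1a, an inhibitory receptor, stood at 8.17, 11.6 and 15.9 TPM, a difference of -0.31 (SE 0.54; limma, adjusted p = 0.611). Both directions were positive on the CPM scale, at 0.23 and 0.58, and without replicate 1, at 0.03 and 0.09, and that of Htr7 was 0.81 with the length of the longest coding transcript.

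Of the 12 G-protein-coupled receptor genes, 2 were above Htr3b, 7 below and 3 not called, where 31.1% of all genes were higher and 42.2% lower. The 7 below were Htr1f, Htr4, Htr1d, Htr1b, Htr5b, Htr6 and Htr2b in falling order. They ran from 5.82 ± 0.480 TPM for Htr1f (limma, adjusted p = 0.0250) down to Htr2b with 0, 4 and 0 counts. The call of Htr1f was lost without replicate 1 (-1.18) or replicate 3 (-1.17), and that of Htr4 on the CPM scale (-0.64) and without replicate 3 (-1.30). Of the 9 receptor calls against Htr3b, the 3 for Htr5a, Htr1b and Htr5b passed without moderation of the spread, and the other 6 had limma adjusted p-values of 0.0544 to 0.0764.

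**Figure D3:**
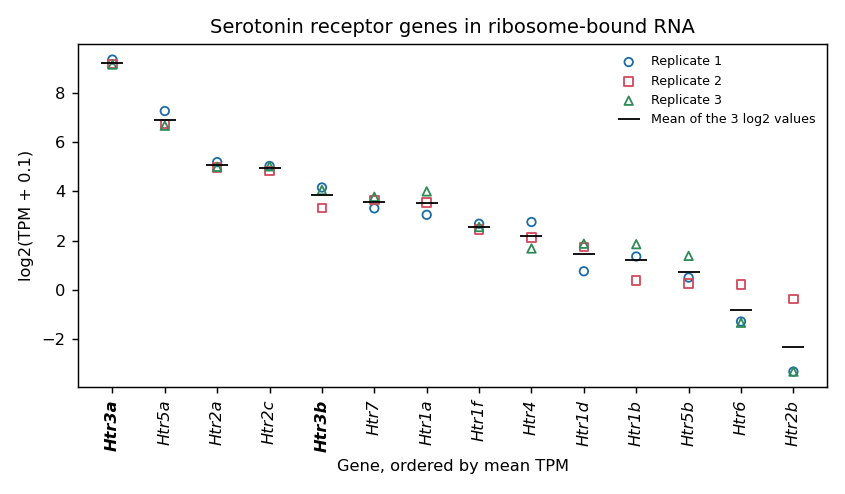
Level of the 14 serotonin receptor genes as log2(TPM + 0.1), ordered by mean TPM, with 1 symbol per library and a bar for the mean of the log2 values, and with the ionotropic subunits in bold. Htr3a leads by a wide gap, and Htr3b lies at place 5 with replicate 2 lowest.

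Genes that make, store and clear serotonin had at most a mean of 29.6 TPM, that of Maoa. Of 9 genes on this list, 7 had a count, all 7 below Htr3a by the limma test, as were 98.1% of all genes, so the count says little about the list. Tph2, the enzyme that starts serotonin synthesis in brain neurons, had 14, 9 and 22 counts, and Tph1, its counterpart outside the brain, had 4, 2 and 2. Ddc, the next enzyme in synthesis, had 7, 13 and 10 counts, and Gch1, which makes the cofactor of Tph enzymes, had 0, 9 and 7. The serotonin transporter gene Slc6a4, as well as Aanat, which converts serotonin towards melatonin, had no count in the 3 libraries, where 3 counts would be 0.209, 0.215 and 0.207 CPM.

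These low levels fell under the B subunit also. Tph1, Tph2, Ddc and Gch1 were below Htr3b (limma, adjusted p between 1.49e-26 and 9.24e-08), though Gch1 missed the threshold without moderation (limma, adjusted p = 0.0617). These are 4 of 7 genes, with 0 above, where 42.2% of all genes were lower than Htr3b and 31.1% higher. The remaining 3 genes with a count did not differ from Htr3b beyond the spread. Maoa, which breaks down serotonin, stood at 30.2, 32.6 and 26.0 TPM, a log2 difference to Htr3b of 1.04 (limma, adjusted p = 0.0698), and it passed under 4 of 10 alternatives. Its relative Maob stood at 12.2, 9.30 and 19.9 TPM, and the vesicular monoamine transporter Slc18a2 at 10.5, 9.32 and 5.50 TPM. Their differences to Htr3b, -0.12 and -0.80 (limma, adjusted p = 0.848 and 0.169), turned positive on the CPM scale, at 0.0897 and 0.30.

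Chaperones that assist pentameric receptors lay between the subunits. Ric3, a protein of the endoplasmic reticulum that aids assembly of 5-HT3 and nicotinic receptors, stood at 55.6, 63.6 and 52.3 TPM, 10.5-fold below Htr3a (limma, adjusted p = 0.000110) and 3.98-fold above Htr3b (limma, adjusted p = 0.000392, and 0.0574 without moderation). Tmem35a, listed as Tmem35, which helps nicotinic receptors assemble, stood at 36.3, 47.0 and 69.7 TPM. The general chaperones Canx and Hspa5 stood at 276 ± 18.6 and 132 ± 8.48 TPM. All 4 genes passed as below Htr3a and above Htr3b, against 98.1% and 31.1% of all genes, though Tmem35 missed the second threshold without moderation (limma, adjusted p = 0.0720) and Canx was 0.05 above Htr3a on the log2 CPM scale.

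Among other genes of the Cys-loop family, the subunits stood far apart. The list described here holds 40 subunit genes, of which 34 had a count, and it is not the whole family, so it gives no place of Htr3a within the family. Against Htr3a, all 33 others with a count were lower, where the background is 98.1% lower. Against Htr3b, 12 were higher, 16 lower and 5 not called. Among all genes tested, 31.1% were higher than Htr3b and 42.2% lower.

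The difference between Htr3a and Gabrb2, a beta subunit of the GABA-A receptor, rested on the lengths used. Gabrb2 stood at 465, 349.5 and 301 TPM (372 ± 84.4, SD, n = 3), below Htr3a in each library by a mean log2 difference of -0.72 (limma, adjusted p = 0.0135), but on the CPM scale it was above Htr3a by 0.89. With the length of the longest transcript the difference was -0.04, and with that of the longest coding transcript Gabrb2 was above Htr3a by 1.33. The call was lost without replicate 2 (-0.71) or replicate 3 (-0.61). Htr3a has shorter exons than Gabrb2, 2083 bases against 6360. Gabrp was the lowest GABA-A subunit with a count, at 0, 1 and 0 counts.

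Nicotinic and glycine receptor genes were lower. Chrna4, the main alpha subunit of high-affinity nicotinic receptors, led its family at 208, 139 and 147 TPM. It was below Htr3a (log2 difference -1.89; limma, adjusted p = 0.000589) and above Htr3b (3.50; limma, adjusted p = 2.59e-10). Chrna7, which like Htr3a forms receptors alone, stood at 49.6, 34.4 and 32.1 TPM, and Chrnb2, the partner of Chrna4, at 26.0, 28.2 and 28.7 TPM. Chrna7 was above Htr3b (log2 difference 1.41; limma, adjusted p = 0.0133), a call lost without moderation (limma, adjusted p = 0.0579) and without replicate 1 (1.37). Chrnb2 was above Htr3b in 3 of 3 libraries without passing the test (log2 difference 0.95, SE 0.54), and passed under 6 of 10 alternatives. Among the 16 nicotinic genes, 5 had 0 counts in 3 of 3 libraries, and these were Chrna6, Chrna9, Chrna10, Chrnd and Chrng. The glycine receptor genes were led by Glrb at 158 ± 16.9, Glra2 at a mean of 109.9 and Glra1 at 6.67 ± 1.25 TPM, with 0 counts for Glra4.

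**Figure D4:**
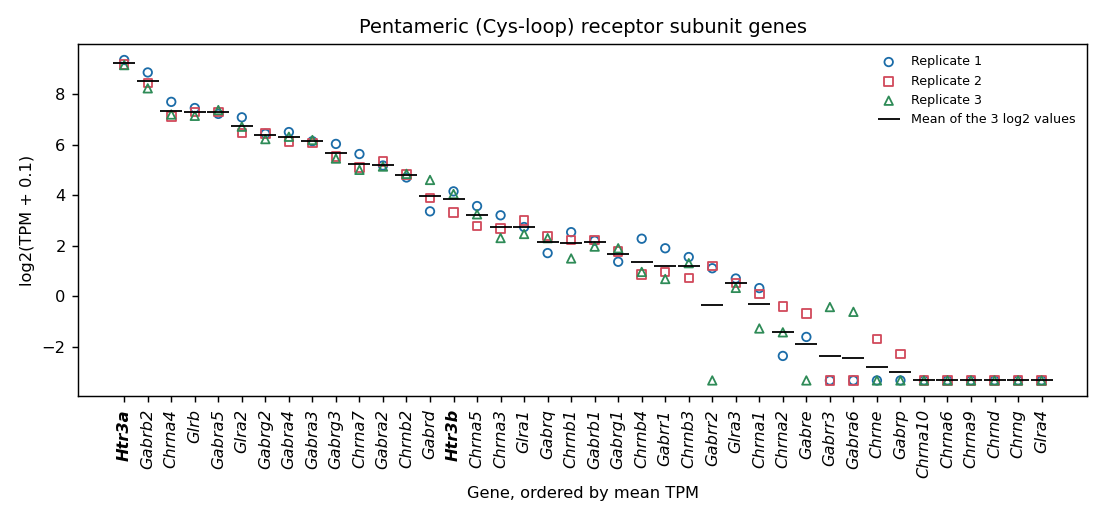
Level of 40 Cys-loop subunit genes, not the whole family, as log2(TPM + 0.1), ordered by mean TPM, with 1 symbol per library, a bar for the mean of the log2 values and the 5-HT3 subunits in bold. Htr3a lies above Gabrb2 in each library, Htr3b lies next to Gabrd, and 6 genes at the right had no count.

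Markers of the Htr3a class of interneurons spanned the level of Htr3a itself. Of 20 such genes, 3 were higher than Htr3a by the limma test, 13 lower and 4 not called, against 0.673% higher and 98.1% lower among all genes. The peptide genes Cck at 5018 ± 1063, Npy at 3217 ± 434 and Vip at 1041 ± 169 TPM were above it, with log2 differences of 3.04, 2.41 and 0.78. The transcription factor Sp8 was lowest, at 8.18 ± 0.970 TPM. The 4 genes not separated from Htr3a were the cannabinoid receptor Cnr1, the peptide genes Penk and Tac2 and the chemokine Cxcl14, with log2 differences of 0.27, 0.18, -0.02 and 0.05 (SE 0.13 to 0.18; limma, adjusted p = 0.164 to 0.914). On the CPM scale the differences of Penk and Cxcl14 were -0.17 and -0.14, that of Cnr1 was 1.90 and that of Tac2 -0.61, while Tac2 was 0.68 above Htr3a with either transcript length. Just below this group lay Adarb2, an RNA-binding protein of the class, at 427, 318 and 296 TPM (log2 difference -0.81; limma, adjusted p = 0.00741). On the CPM scale, where its long exons weigh in, Adarb2 was 1.84 above Htr3a, with either transcript length it was 0.15 above, and its call was lost without replicate 2 (-0.78). Against Htr3b, 18 of the 20 were higher and 0 lower, where 31.1% of all genes were higher and 42.2% lower. Npas1 (0.92, limma, adjusted p = 0.112) and Sp8 (-0.80, limma, adjusted p = 0.170), both transcription factors, were not called.

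Markers of the other interneuron class, from the medial ganglionic eminence, gave 1 gene higher than Htr3a, 8 lower and 1 not called of 10. These were Sst, at 8247 ± 551 TPM, for the first and Elfn1, at 477 ± 76.4 TPM, for the last. Sst was higher than Cck, the highest of the Htr3a class markers. Against Htr3b, 6 of the 10 were higher, 1 lower and 3 not called. Of the 9 GABAergic markers 2 were higher than Htr3a, 6 lower and 1 not called, and 7 were higher than Htr3b and 2 not called. The 12 excitatory markers gave 1 higher than Htr3a (Camk2a) and 11 lower, and 9 higher than Htr3b, 1 lower and 2 not called. All 8 astrocyte, 9 oligodendrocyte, 8 microglial and 8 endothelial markers were below Htr3a, as were 98.1% of all genes. Of these lists, 1, 4, 0 and 0 genes were above Htr3b and 3, 1, 7 and 8 below it, in the same order, where 31.1% of all genes were above and 42.2% below. Levels of Htr3b were thus within the range of markers of astrocytes and oligodendrocytes in these libraries, and above 7 of the 8 microglial and all 8 endothelial markers. Which cells supplied the Htr3b message was not tested.

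The genes whose level over the 3 libraries was most like that of Htr3a, by the root mean square difference of log2(TPM + 0.1), were R3hdm2, the protein kinase Prkce, the nucleolar GTPase Gnl3l, the ubiquitin ligase Ttc3 and the kinesin motor subunit Kif3a, at distances of 0.0331 to 0.0815. R3hdm2 stood at 663, 563 and 559 TPM, with the same high value in replicate 1. Between the genes called above and those called below Htr3a lay 200 genes that did not pass in either direction, 77 ranked higher and 123 ranked lower.

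Most like Htr3b were Ppp1r3c, which targets a phosphatase to glycogen, the transcript Sp3os, the mitochondrial enzyme gene Acss1, Tmem39b and Stk11ip, at distances of 0.0729 to 0.132. Ppp1r3c, for instance, stood at 18.5, 9.65 and 17.8 TPM, with the same low value in replicate 2. Sp3os is named as an opposite-strand transcript of Sp3, and reads of opposite strands cannot be told apart without the strand setting. The order around Htr3b was much less resolved, with 4448 genes not called. With 3 libraries, this likeness mostly reflects level.

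On the chromosome, Htr3a was the highest of the protein-coding genes within 500 kb on either side. Of 13 such genes, 12 had a count, and the 10 that are no 5-HT3 subunit were all below Htr3a (limma; background 98.1%). Zbtb16, a zinc finger transcription factor and the nearest on the downstream side, stood at 254, 151 and 142 TPM (log2 difference to Htr3a -1.77; limma, adjusted p = 0.00159). The Zbtb16 difference was -0.43 on the CPM scale and did not pass there (limma, adjusted p = 0.0994). Rexo2, a mitochondrial nuclease, was the highest of the 10 at 290, 212 and 224 TPM (-1.32; limma, adjusted p = 0.00129). The Rexo2 difference was 0.33 with the length of the longest coding transcript and -0.40 with that of the longest transcript, and passed in neither case.

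Htr3b, whose start lies 53.9 kb from that of Htr3a, was lower than the gene on its other side. Usp28, a deubiquitinase, stood at 75.2, 64.0 and 55.5 TPM, 4.49-fold above Htr3b (limma, adjusted p = 0.000109). Rexo2, Zbtb16 and Usp28 were called above Htr3b, and Nxpe4, Rbm7, Nnmt, Zw10 and Tmprss5 below. These are 3 and 5 of 10 genes, where 31.1% of all genes were above Htr3b and 42.2% below, so the split says little about the neighbourhood. The call of Nxpe4 was lost on the CPM scale (-0.58), with the longest coding transcript (-0.97) and without moderation (limma, adjusted p = 0.0907), and that of Nnmt without moderation (limma, adjusted p = 0.0540). The dopamine receptor Drd2, at 20.4, 18.0 and 14.9 TPM, and Gm5617, at 16.4, 7.36 and 13.7 TPM, overlapped Htr3b and did not differ from it beyond the spread (limma, adjusted p = 0.616 and 0.662). On the CPM scale Gm5617, whose exons are short, was below Htr3b by a log2 difference of -2.36 (limma, adjusted p = 2.86e-07), against -0.27 per length. Zw10, a gene of the mitotic checkpoint, stood at 5.21, 5.66 and 6.69 TPM, and its call against Htr3b (-1.28; limma, adjusted p = 0.0253) was lost under each transcript length, on the CPM scale, without moderation and without replicate 1 or 3. That of Rbm7, an RNA-binding protein, at 4.99, 6.26 and 8.34 TPM, was lost under the same alternatives, and its difference was 0.32 with the longest coding transcript. Gm4894 had 0 counts in 3 of 3 libraries.

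**Figure D5:**
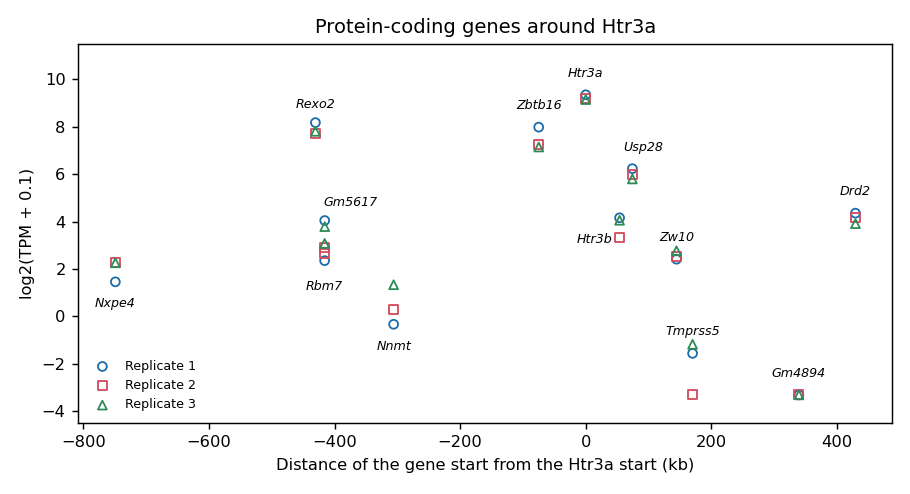
Level of the 13 protein-coding genes around Htr3a as log2(TPM + 0.1), against the distance of each gene's start from the Htr3a start in kb, with 1 symbol per library. Htr3a is highest, and Htr3b, 53.9 kb away, lies below Usp28 and Zbtb16.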

How the data were processed

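The deposited files hold raw counts per gene symbol for 3 libraries, and per the submitters' processing notes STAR 2.0.0e, HTSeq and mm10 were used, without the role of each. No source used here gives the annotation, counting mode or strand setting. Lines that name no gene stayed out: 11.0% to 13.1% of records on no feature, 2.49% to 2.83% ambiguous and 11.2% to 13.1% not uniquely aligned. TPM was computed from the counts over merged exons of GENCODE M21 for 23155 symbols matched directly and 736 through older symbols, leaving 8640 without a length.

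Genes with at least 1 count were set against each member within libraries on log2(TPM + 0.1) with limma 3.58.1, two-sided, with Benjamini-Hochberg adjustment over 16650 genes at a threshold of 0.05. The procedure was tested on simulated data. The member's own error is shared by all its differences. Against Htr3b, which has few counts, genes made with no difference were called in that test more often than the threshold allows, in at least 1 set most of them, and many 2-fold differences were missed. Single calls against Htr3b and the size of their p-values are therefore uncertain. Variation between libraries used TMM (edgeR 4.0.16) and a chi-square test, with DESeq2 1.42.0 size factors as an alternative. The longest coding transcript is the transcript with the longest coding sequence. Alternatives also covered length, pseudocount, filter, moderation and each replicate left out.

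The members and gene lists were chosen with earlier results of these data known. Genes named were the members, the serotonin, metabotropic receptor and chaperone lists, and the 5 genes nearest each member in level. Also named were protein-coding genes within 500 kb, and the highest 3 and the lowest of each channel family and of the Htr3a class markers. Of the other marker lists, only Sst, Elfn1, Camk2a, Gad2 and Aldoc are named, each among the highest 3 of its list. Cnr1, Penk, Cxcl14, Tac2, Adarb2, Npas1, Gabrd and the channel genes with no count were named after their values were seen. Some channel subunit genes are not reported here; they stayed in the fits and are left out of the channel lists, counts and plot. R 4.3.3, Python 3.11.15, pandas 2.3.3, Biopython 1.88 and matplotlib 3.10.9 were used.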

Additional observations from a re-analysis of the deposited data

How the results depend on the processing

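Htr3a exceeded Htr3b past the threshold under all 10 alternatives tried for that difference, at log2 values of 5.15 to 5.53, and the B share of counts stayed between 2.37% and 3.15%. No paired analysis was possible because there is 1 group, and differences were taken within libraries. The number of genes called higher than Htr3a, 112, was 519 on the CPM scale, 169 with the longest transcript and 238 with the longest coding transcript as length. Genes called lower than Htr3b, 7019, numbered 3390 among genes of at least 1 CPM and 3547 without moderation, where 3378 were higher against 5183. On the CPM scale 7438 were higher and 6277 lower than Htr3b. In the same order of length choices, Htr3a (rank 190 by mean TPM) ranked 805, 295 and 399, and Htr3b (rank 7544) ranked 9051 on the CPM scale and 8703 with the longest coding transcript. With 1 replicate left out, 5542 to 8071 genes varied between libraries against 9620, and the range between libraries was 1.03 to 1.19 for Htr3a and 1.12 to 1.83 for Htr3b. A mean-variance trend, chosen after seeing the data, kept each count within 1.5 times.

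Of 872 values for single genes, 782 kept direction and call, 38 lost and 27 gained the call, and 25 changed sign. Against Htr3a on the CPM scale, Canx was at 0.0492, Gabrb2 at 0.89, Penk at -0.17, Cxcl14 at -0.14 and Adarb2 at 1.84. With the longest transcript, Tac2 was at 0.68 and Adarb2 at 0.15, and with the longest coding transcript Gabrb2 at 1.33, Tac2 at 0.68, Adarb2 at 0.15 and Rexo2 at 0.33. Over the 3 leave-one-out fits, Cxcl14 ran from -0.0402 to 0.120 and Tac2 from -0.0866 to 0.0215 against Htr3a, and Htr1a ran from -0.58 to 0.0912, Htr7 from -0.56 to 0.0346 and Maob from -0.31 to 0.0897 against Htr3b. Against Htr3b on the CPM scale, Htr1a was at 0.58, Htr7 at 0.23, Slc18a2 at 0.30 and Maob at 0.0897. Maob was at 0.0900 with the longest and 0.0899 with the longest coding transcript, and Htr7 at 0.81 and Rbm7 at 0.32 with the latter. Changes under other lengths follow from the lengths, and the cause of the others was not tested. The 67 to 118 counts per library limit what can be said of Htr3b.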
